A study of Drosophila melanogaster with 12 samples.

Results

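The 6 arrays of untreated Drosophila melanogaster embryos, out of 12 arrays in the study, were compared between 2 windows of embryogenesis. They were chosen by the word control in their sample titles: 3 arrays of embryos at stages 13 to 15, the window the titles call resistant, and 3 arrays of embryos at stages 9 to 11, the window they call sensitive. All 13966 gene probe sets of the deposited table were members, and its 44 array controls were left out. The other 6 arrays measured embryos of the same windows (3 arrays each) collected 15 to 20 minutes after X-rays. All 4 groups are labelled C-S, total RNA was measured in each, and the labels name no transgene or mutant allele. The hours after egg laying, the X-ray dose, the sex, and the number of embryos pooled for each array are not given by the labels used here. No label says that arrays of 1 group came from separate collections, so a p-value here sets the difference against array-to-array spread, which may in part be technical. In what follows, later embryos are those at stages 13 to 15 and earlier embryos are those at stages 9 to 11.

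As background, stages 9 to 11 cover the extended germ band, when segments are laid out and many cells of the embryo pass through their last divisions. Stages 13 to 15 follow germ band retraction and include dorsal closure and head involution, when muscles, the gut, the epidermis and the nervous system form from cells that have for the most part left the cell cycle. Whole embryos hold all of these cells together. In such bulk RNA, fewer cells of a type and less RNA per cell cannot be told apart.

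The arrays fell by window. Spearman correlations across the tested probe sets were 0.820 to 0.838 among the 3 later arrays and 0.886 to 0.905 among the 3 earlier arrays, against 0.625 to 0.719 for the 9 pairs that crossed windows. No pair shared more than 0.458% of its values, so each array was counted as 1 sample. The later arrays differed more among themselves: the median SD on the log2 scale was 0.368 at stages 13 to 15 and 0.300 at stages 9 to 11, and 59.1% of the probe sets had the larger SD at stages 13 to 15. In irradiated embryos the order was the other way, at 0.316 for stages 13 to 15 and 0.351 for stages 9 to 11.

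The array controls followed the replicate number in both windows. The BioB spike-in read 1443, 738 and 226 on later arrays 1, 2 and 3, against 1376, 425 and 231 on earlier arrays 1, 2 and 3. The ratio of the 5′ to the 3′ probe set of eIF-4a, which falls where long transcripts are broken or incompletely copied, also went with the number, at 0.0390, 0.0524 and 0.155 in later embryos and 0.0378, 0.0798 and 0.140 in earlier embryos. The same ratio for GAPDH went with the window, at 0.229, 0.201 and 0.224 in later embryos and 0.340, 0.257 and 0.513 in earlier embryos, without overlap. That for actin was 0.159, 0.138 and 0.325 in later embryos and 0.226, 0.196 and 0.458 in earlier embryos. The part of these differences in the results was not tested.

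Between the windows, 2719 of the 10139 tested probe sets, or 26.8%, passed the test (limma, Benjamini-Hochberg adjusted p under 0.05 over all tested probe sets). Of all tested probe sets, 12.3% (1252) were higher and 14.5% (1467) were lower at stages 13 to 15. Among these called probe sets the median log2 difference was 1.46 for the rises and −1.16 for the falls. The largest single fall, at −7.44, exceeded the largest rise, at 4.97. Rises made up a larger share of the calls among dim probe sets, where the standard error is larger, so the 2 medians are not on equal terms. A change of at least 2-fold was found for 977 rises and 906 falls, one of at least 4-fold for 297 rises and 150 falls, and one of at least 8-fold for 50 rises and 22 falls. Over all tested probe sets the median log2 difference was 0.05. The groups' 3 and 3 values did not overlap for 40.7% of all tested probe sets, and for 2669 of those that passed. All differences are on the log2(intensity + 13.3) scale, which understates the change of dim probe sets. The fit behind these counts did not pair arrays by replicate number. With the number as a block, 3180 probe sets passed in the fit of 12 arrays and 2854 in that of the 6 untreated arrays. Named genes whose call this changed are given in the last section.

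Brighter probe sets were called more often and, when called, more often lower in later embryos. With the tested probe sets split by mean intensity into 4 bins of equal size, 6.86% passed in the dimmest bin, followed by 18.2%, 33.9% and 48.3%. The share of called probe sets that rose was 69.5% in the dimmest bin, then 54.8%, 44.9% and 40.2%. The median log2 difference over all tested probe sets of a bin, called or not, also went down, at 0.24, 0.08, −0.09 and −0.11. The median standard error was 0.465 in the dimmest bin and 0.214 in the brightest. A further count without a test, over all 13966 gene probe sets, shows transcripts near the floor of the array in one window. On all 3 later arrays 236 read above 29.9, the intensity used as filter, and at or below it on all 3 earlier arrays. The reverse held for 144. The windows also differed at the low end as a whole. At or below 29.9 on all 3 arrays were 3392 probe sets in later embryos and 4480 in earlier embryos. Array medians were 45.4 to 51.3 in later and 41.7 to 43.7 in earlier embryos. The part of this in the counts of 236 and 144 was not tested.

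**Figure D1:**
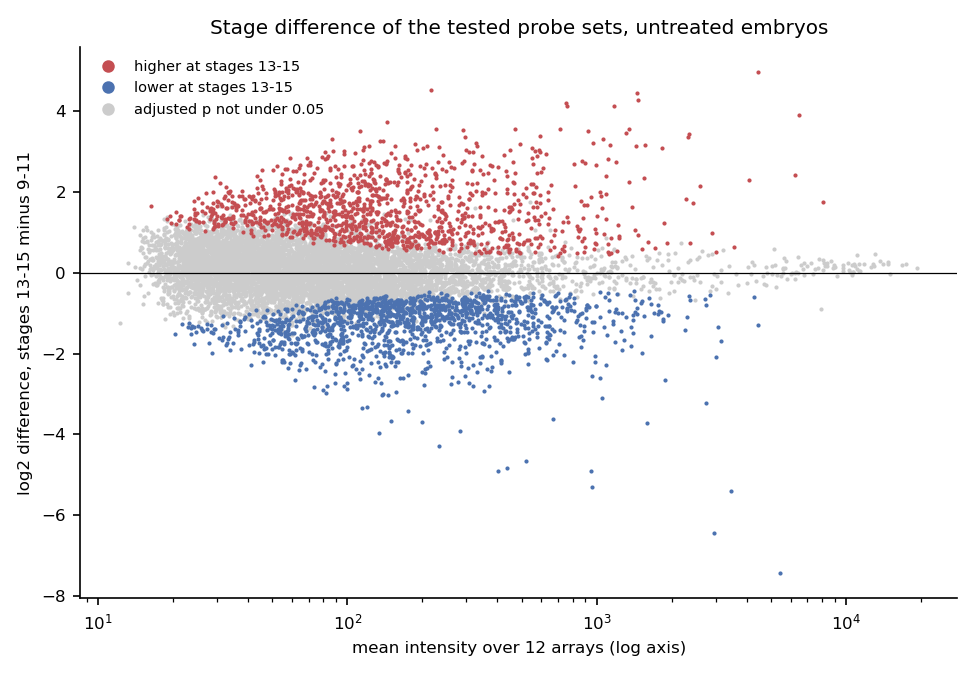
Log2 difference between stages 13 to 15 and stages 9 to 11 in untreated embryos (vertical axis) against the mean intensity over 12 arrays (log horizontal axis), 1 point for each of the 10139 tested probe sets. Coloured points are the 1252 that were higher and the 1467 that were lower in later embryos; they become denser among bright probe sets, where the standard error is smaller.

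A gene name could be given to 133 probe sets (131 genes), and 109 of these probe sets (107 genes) passed the filter on low values. Of the 109, 51 passed the test, 23 of them higher and 28 lower in later embryos. That is 46.8%, against 26.8% of all tested probe sets. The named probe sets were also brighter than the rest, with 50 of 109 in the brightest bin, where 54.0% of them and 48.3% of all probe sets passed. The gap was wider in the other bins. From the dimmest, 18.2% of 11, 33.3% of 24 and 58.3% of 24 named probe sets passed, against 6.86%, 18.2% and 33.9% of all. Their median log2 difference was −0.18, against 0.05 over all. The results below follow the genes by role. The roles were assigned after their values had been seen, and counts by role are given without a test. Each is to be read beside the 26.8% of all tested probe sets and the 46.8% of the named ones.

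Enzymes of amino acid and one-carbon metabolism made up the role with the most rises in later embryos. Of 9 tested genes 7 rose (77.8%), 2 did not pass and none fell, with a median log2 difference of 1.82. These enzymes act in the breakdown of amino acids or carry single carbon units on folate. Shmt, serine hydroxymethyltransferase, which moves a carbon from serine to folate, read 172, 182 and 176 in later embryos, against 8.2, 17.4 and 11.9 in earlier embryos. Every earlier array lay below the filter value of 29.9 and every later array well above it, and the log2 difference was 2.90 ± 0.28 (SE; adjusted p = 2.79e-06). CG6415, the aminomethyltransferase of the glycine cleavage system, which passes a carbon of glycine to the same carrier, read 326, 280 and 301 in later embryos, against 21.1, 57.8 and 57.2 in earlier embryos. The groups were far apart, with a log2 difference of 2.50 ± 0.30 (adjusted p = 1.91e-05). Nmdmc, the mitochondrial dehydrogenase and cyclohydrolase of the folate cycle, rose less: it averaged 199 ± 62.2 in later embryos and 96.3 ± 19.5 in earlier embryos (SD, n = 3 each), a log2 difference of 0.92 (adjusted p = 0.0306).

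Among transaminases and enzymes of amino acid breakdown, Oat, Got2, CG9547 and Acat1 rose. Oat, ornithine aminotransferase, which links ornithine to proline and glutamate, read 332, 366 and 228 in later embryos, against 45.4, 28.3 and 23.0 in earlier embryos. Its log2 difference was 2.83 ± 0.30 (adjusted p = 6.24e-06), and the lowest later array lay above the highest earlier one. Got2, the mitochondrial aspartate aminotransferase, read 594, 578 and 405 in later embryos and 225, 117 and 95.3 in earlier embryos, a log2 difference of 1.82 ± 0.40 (adjusted p = 0.0027). CG9547, glutaryl-CoA dehydrogenase of lysine and tryptophan breakdown, read 98.9, 105 and 90.2 in later embryos, against 17.9, 8.0 and 14.1 in earlier embryos. It too was at or below the filter value on every earlier array, with a log2 difference of 2.08 ± 0.40 (adjusted p = 0.0012). Acat1, acetyl-CoA acetyltransferase, averaged 153 ± 49.3 in later embryos and 71.3 ± 14.1 in earlier embryos (adjusted p = 0.0354).

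The other 2 enzymes of this kind did not pass the test. The tryptophan dioxygenase vermilion (v) averaged 54.3 ± 25.6 in later embryos and 23.9 ± 8.51 in earlier embryos (adjusted p = 0.119). Gabat, GABA transaminase, read 560, 571 and 560 in later embryos and 518, 562 and 592 in earlier embryos, a log2 difference of 0.02 with a 95% interval of −0.39 to 0.42. The calls for Acat1 and Nmdmc were close to the threshold, and with no trend in the fit both were lost (adjusted p = 0.0519 and 0.0525). Acat1 lost its call without later array 2 (adjusted p = 0.155) and without earlier arrays 1, 2 or 3 (0.0540, 0.129 and 0.0583), and also without the 4 arrays numbered 3 (0.0851). Nmdmc lost it without later arrays 1 or 2 (0.120 and 0.106) and without earlier arrays 2 or 3 (0.0981 and 0.0870).

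**Figure D2:**
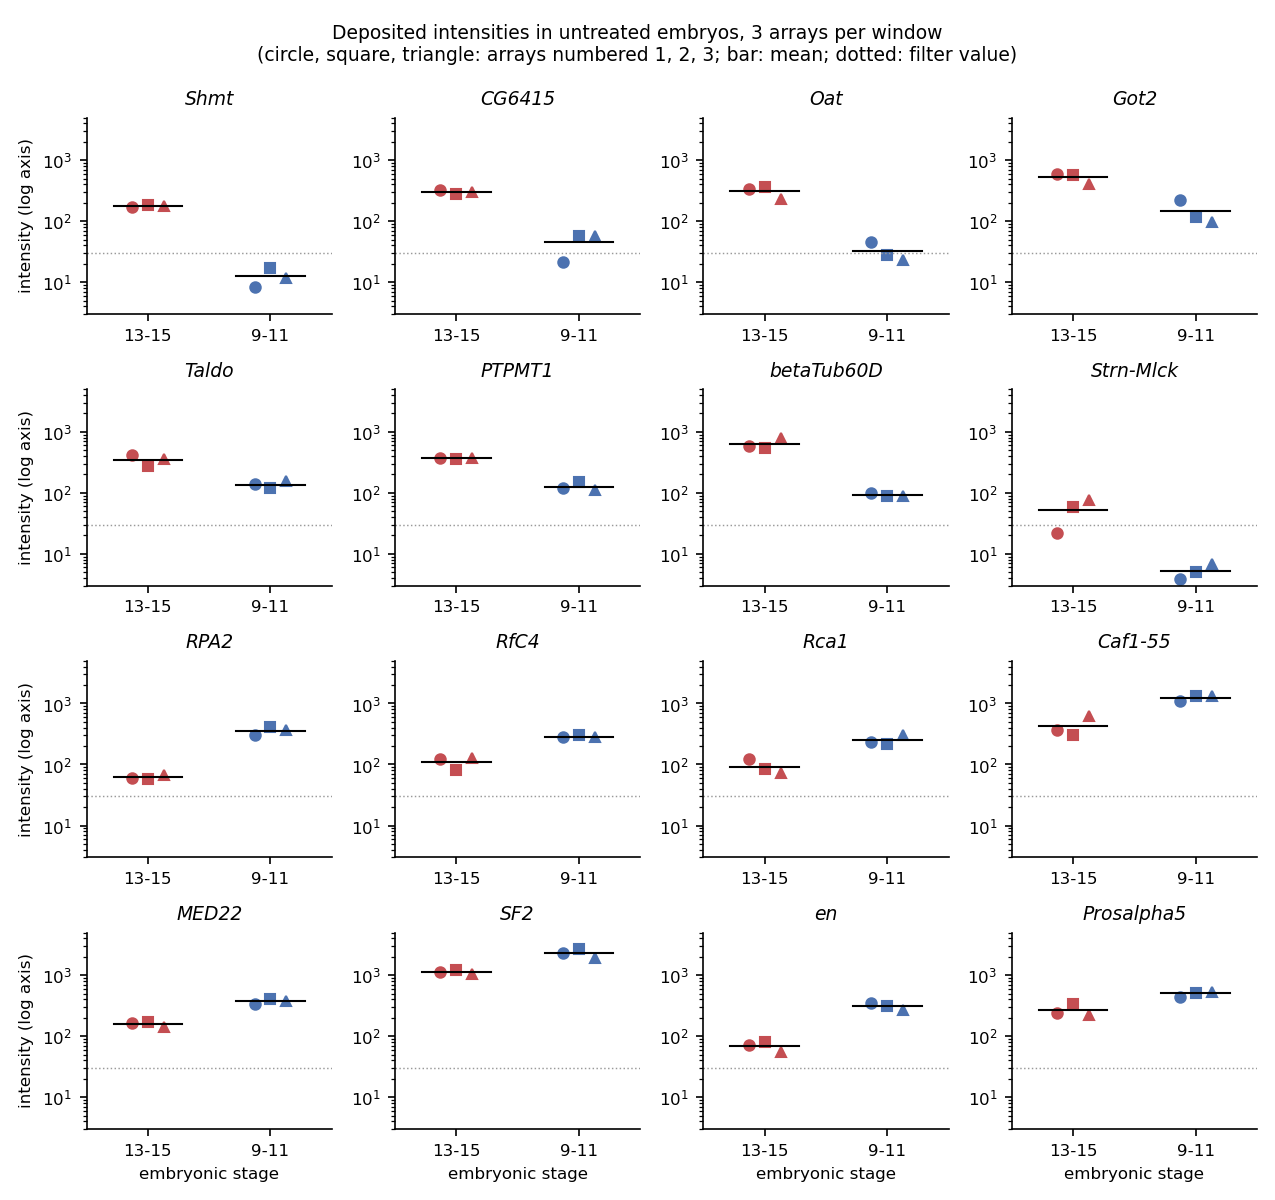
Intensity (log axis) of 16 genes on the 6 untreated arrays, stages 13 to 15 left of stages 9 to 11 in each panel; circles, squares and triangles are arrays 1, 2 and 3, bars are means of 3 arrays, and the dotted line is the filter value of 29.9. Shmt read 172 to 182 in later embryos and 8.2 to 17.4 in earlier embryos, while RPA2 read 57.4 to 66.5 in later embryos and 305 to 407 in earlier embryos.

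Of 9 tested genes of sugar and central carbon metabolism, 2 rose and 7 did not pass, with a median log2 difference of 0.19. That is 22.2%, near the 26.8% of all tested probe sets and under the 46.8% of the named ones. Taldo, transaldolase of the pentose phosphate pathway, read 417, 274 and 360 in later embryos, against 138, 118 and 154 in earlier embryos. The groups did not overlap, with a log2 difference of 1.26 ± 0.19 (adjusted p = 0.000172). Irp-1B, an iron regulatory protein related to aconitase, read 172, 13.5 and 157 in later embryos, against 15.9, 10.1 and 7.8 in earlier embryos. Later array 2 lay among the earlier arrays, so the groups overlapped although the test passed, with a log2 difference of 1.96 ± 0.57 (adjusted p = 0.0177). Irp-1B was no longer called without later arrays 1 or 3 (adjusted p = 0.0948 and 0.0836), without earlier array 3 (0.0537) or without the 4 arrays numbered 3 (0.194).

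The other central carbon genes had small differences or wide intervals. ScsbetaG, a succinyl-CoA synthetase subunit of the citric acid cycle, averaged 358 ± 14.3 in later embryos and 313 ± 24.4 in earlier embryos, with a 95% interval of −0.14 to 0.52 on the log2 scale. Ogdh, the oxoglutarate dehydrogenase of the same cycle, had an interval of −0.15 to 0.86, and Pdp, the phosphatase that switches on pyruvate dehydrogenase, one of −0.18 to 0.79. Mondo, a sugar-sensing transcription factor, had an interval of −0.69 to 0.31. Pepck1, phosphoenolpyruvate carboxykinase of gluconeogenesis, averaged 329 ± 161 in later embryos and 498 ± 93.5 in earlier embryos (adjusted p = 0.137), and passed without later array 3 (0.0175) or the 4 arrays numbered 3 (0.0054).

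Among the genes of lipid metabolism, 2 of 5 tested rose and 3 did not pass. PTPMT1, a mitochondrial phosphatase on the path to cardiolipin, read 374, 362 and 367 in later embryos, against 121, 150 and 109 in earlier embryos. It was among the tightest rises, with a log2 difference of 1.45 ± 0.19 (adjusted p = 5.57e-05). Jheh1, a juvenile hormone epoxide hydrolase, read 265, 199 and 183 in later embryos, against 42.4, 66.4 and 41.9 in earlier embryos, a log2 difference of 1.85 ± 0.34 (adjusted p = 0.000793). Of the proteins that coat lipid droplets, Lsd-2 averaged 221 ± 56.8 in later embryos and 181 ± 83.9 in earlier embryos (adjusted p = 0.405), and Jabba averaged 40.7 ± 13.8 in later embryos and 114 ± 75.4 in earlier embryos (adjusted p = 0.0829, and 0.0453 with quantile normalization). The glycerol-3-phosphate acyltransferase mino had a log2 difference of −0.28 (adjusted p = 0.411).

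All 3 tested genes of muscle and cytoskeleton rose. The tubulin betaTub60D, known from the mesoderm and its muscles, read 583, 534 and 781 in later embryos, against 97.9, 87.3 and 87.7 in earlier embryos. Among the named genes it had the smallest adjusted p, 9.94e-08, with a log2 difference of 2.61 ± 0.17. Strn-Mlck, a giant kinase of the striated muscle filament, read 22.2, 59.1 and 76.4 in later embryos, against 3.8, 5.0 and 6.7 in earlier embryos. All 3 earlier values lay under the filter value and 1 later value did too, so the fitted log2 difference of 1.73 ± 0.45 (adjusted p = 0.00899) shrank to 0.82 with 4 times the pseudocount. The actin Act79B averaged 745 ± 229 in later embryos and 386 ± 85.1 in earlier embryos (log2 difference 0.91, adjusted p = 0.0137), and its probe set carries the suffix for a gene family, so other actins may add to it. Strn-Mlck lost its call without the 4 arrays numbered 3 (adjusted p = 0.1001), and Act79B without later array 3 (0.0652) or earlier array 2 (0.0746).

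Genes of DNA replication, repair and the cell cycle ran in the opposite direction. Of 8 tested, 5 fell in later embryos (62.5%), 3 did not pass and none rose, with a median log2 difference of −1.01. RPA2, a subunit of the protein that covers single-stranded DNA at the replication fork, read 60.9, 57.4 and 66.5 in later embryos, against 305, 407 and 370 in earlier embryos. Among the named genes it was the largest fall, with a log2 difference of −2.31 ± 0.19 (adjusted p = 8.91e-07). RfC4, a subunit of the loader of the sliding clamp, read 122, 80.3 and 130 in later embryos and 278, 302 and 282 in earlier embryos, a log2 difference of −1.30 ± 0.23 (adjusted p = 0.000589). Rca1, which keeps cyclins from being destroyed too early, read 121, 83.6 and 72.9 in later embryos, against 234, 220 and 304 in earlier embryos (log2 difference −1.34 ± 0.22, adjusted p = 0.000352). In all 3 genes every later array lay below every earlier array.

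CycH and mrn belong to the general factor TFIIH, which acts in transcription and in nucleotide excision repair. CycH, the cyclin partner of the CDK-activating kinase, averaged 83.0 ± 30.7 in later embryos and 198 ± 34.7 in earlier embryos (log2 difference −1.17, adjusted p = 0.00781). The core subunit mrn averaged 67.9 ± 15.0 in later embryos and 122 ± 19.2 in earlier embryos (log2 difference −0.75, adjusted p = 0.028). CycH lost its call without the 4 arrays numbered 3 (adjusted p = 0.0640), and mrn did so there (0.264), in the fit of the 6 untreated arrays alone (0.0635) and without later array 3 (0.105) or earlier arrays 2 or 3 (0.0763 and 0.116). Skp2, a subunit of a ubiquitin ligase of the cell cycle, had a log2 difference of −0.81 (adjusted p = 0.0606), the translesion polymerase subunit PolZ1 one of −0.84 (adjusted p = 0.164), and pic, the DNA damage-binding protein, one of −0.59 (adjusted p = 0.152). Other settings called these: PolZ1 without later array 1 (−1.45, adjusted p = 0.00638), Skp2 with median scaling (0.0488), without later array 3 (0.0217) or without earlier array 1 (0.0453), and both Skp2 and pic without the 4 arrays numbered 3 (0.0139 and 0.0251).

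Of 8 tested probe sets of chromatin and patterning factors, 2 fell, 6 did not pass and none rose. The segment polarity gene engrailed (en), which marks the posterior cells of each segment, read 71.6, 80.8 and 54.5 in later embryos, against 353, 310 and 266 in earlier embryos. The groups were far apart, with a log2 difference of −1.98 ± 0.25 (adjusted p = 3.26e-05). Caf1-55, a histone-binding subunit of chromatin assembly and Polycomb complexes, read 367, 309 and 613 in later embryos, against 1101, 1327 and 1318 in earlier embryos, a log2 difference of −1.57 ± 0.22 (adjusted p = 7.3e-05). The homeobox gene Dr had a log2 difference of −0.34 (adjusted p = 0.387), Bin1, a partner of histone deacetylase complexes, one of −0.32 (adjusted p = 0.388), and the zinc finger gene stc a 95% interval of −0.29 to 0.45. The 2 probe sets of the cofactor bon gave log2 differences of −0.31 and −1.33, and neither passed (adjusted p = 0.695 and 0.159).

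Transcription and splicing genes fell in 4 of 6 cases (66.7%), with a median log2 difference of −0.87 and no rise. MED22, a subunit of the Mediator complex, read 165, 171 and 139 in later embryos, against 338, 405 and 372 in earlier embryos. Its log2 difference was −1.17 ± 0.19 (adjusted p = 0.000232), and the groups did not overlap. The splicing factor SF2 read 1110, 1230 and 1063 in later embryos, against 2284, 2661 and 1880 in earlier embryos, a log2 difference of −0.98 ± 0.17 (adjusted p = 0.000586). TfIIFalpha, a general factor of RNA polymerase II, averaged 244 ± 59.7 in later embryos and 510 ± 95.9 in earlier embryos (log2 difference −1.03, adjusted p = 0.00493). Polr2C, a subunit of that polymerase, had a log2 difference of −0.75 (adjusted p = 0.0155), and its call was lost without later array 2 (adjusted p = 0.0629) and without the 4 arrays numbered 3 (0.0687). Polr1A, the largest subunit of RNA polymerase I, differed by −0.23 (adjusted p = 0.423) and the elongation factor spt4 by −0.68 (adjusted p = 0.135).

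**Figure D3:**
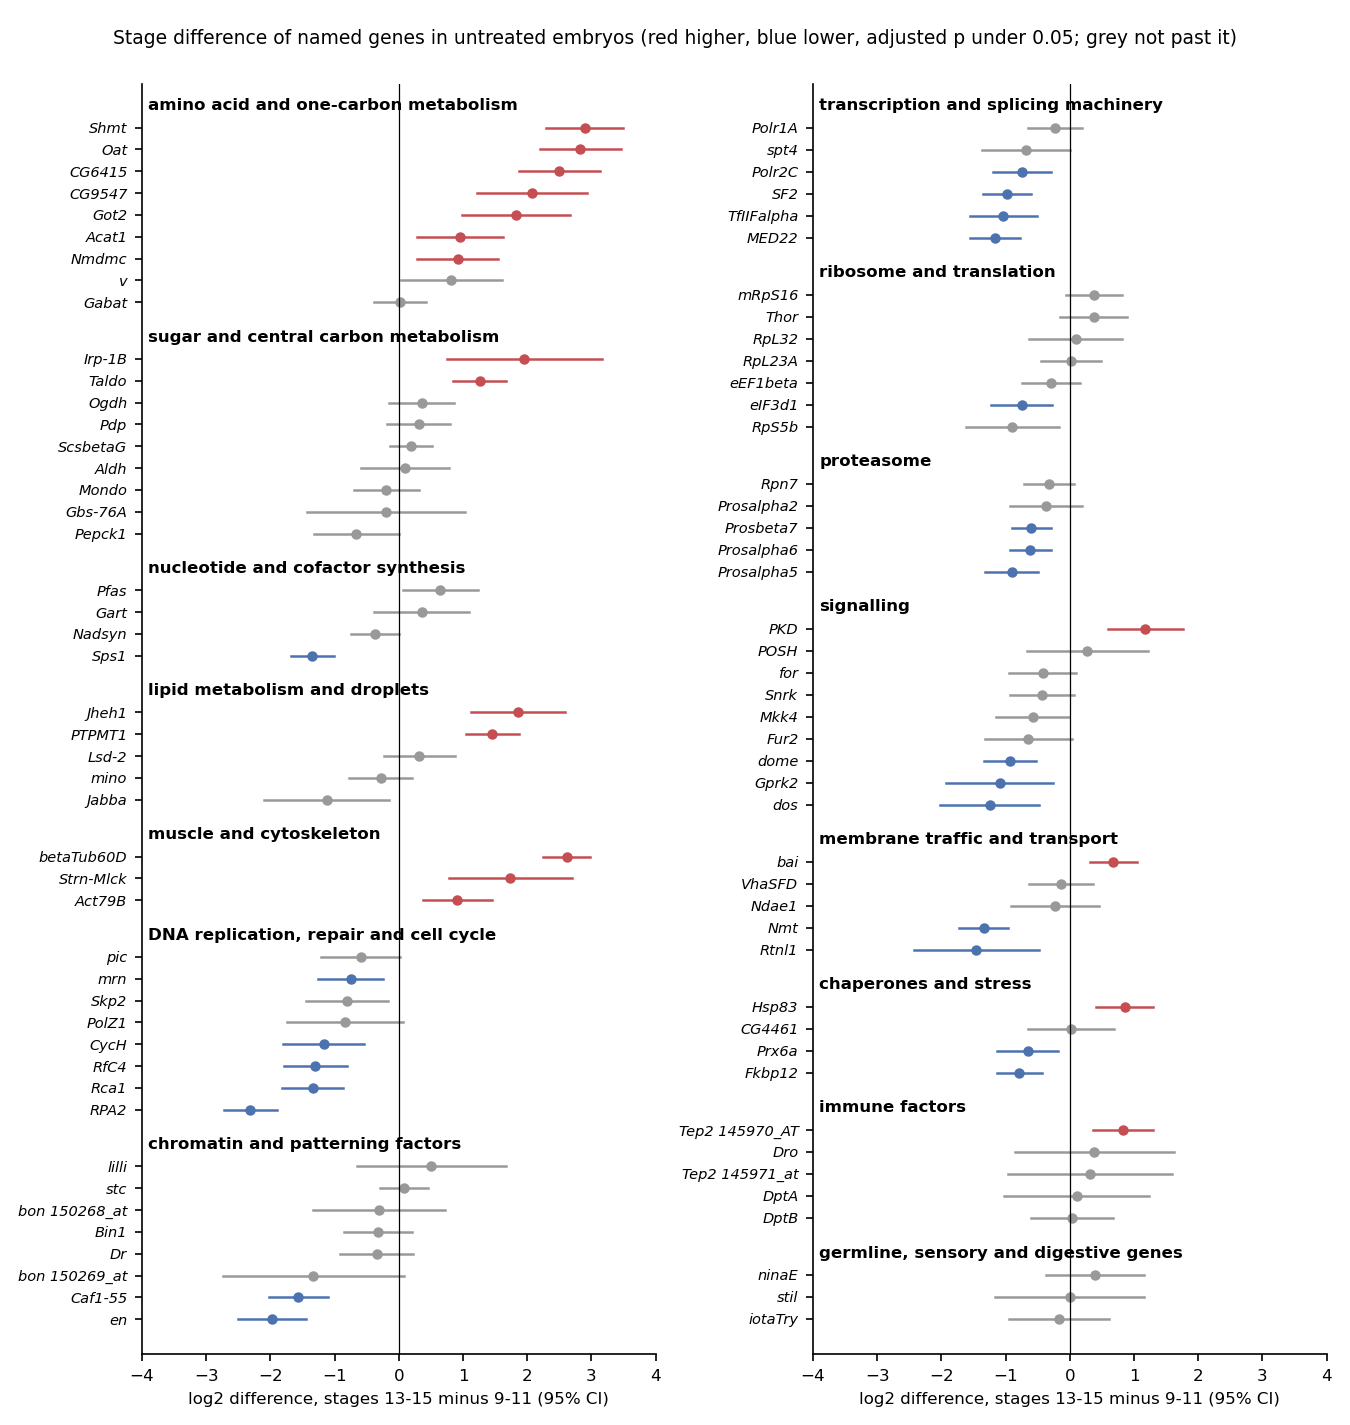
Log2 difference between stages 13 to 15 and stages 9 to 11 in untreated embryos for tested genes that were given a role, ordered by role, with 95% confidence intervals from the fit. All 7 amino acid and one-carbon enzymes that passed lie right of 0, and all 5 replication and cell cycle genes that passed lie left of it.

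Of 5 proteasome genes, 3 fell and 2 did not pass. The 3 are subunits of the core particle that degrades proteins. Prosalpha5 read 240, 336 and 218 in later embryos, against 445, 518 and 539 in earlier embryos, a log2 difference of −0.91 ± 0.19 (adjusted p = 0.00252). Prosalpha6 averaged 476 ± 54.2 in later embryos and 734 ± 44.1 in earlier embryos (log2 difference −0.62, adjusted p = 0.00573). Prosbeta7 averaged 853 ± 46.0 in later embryos and 1297 ± 87.7 in earlier embryos (log2 difference −0.60, adjusted p = 0.00484). All 3 falls were under 2-fold. Prosalpha2, of the same particle, had a log2 difference of −0.38 (adjusted p = 0.326), and Rpn7, of the regulatory cap, one of −0.33 (adjusted p = 0.208).

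Genes of the ribosome and of translation mostly did not pass, at 1 fall among 7 tested (14.3%). The ribosomal protein RpL23A read 10821, 11802 and 9337 in later embryos, against 10683, 11600 and 9234 in earlier embryos, with a log2 difference of 0.02 and an interval of −0.44 to 0.48. The values of each array number nearly coincided between the windows. RpL32 averaged 11346 ± 3363 in later embryos and 10604 ± 3022 in earlier embryos, and both windows had their lowest value on array 3. RpS5b read 6317, 6467 and 3029 in later embryos, against 10551, 11266 and 6765 in earlier embryos. Its groups did not overlap, and the test was not passed (log2 difference −0.90 ± 0.34, adjusted p = 0.0635). RpS5b passed with quantile normalization (adjusted p = 0.00199), median scaling (0.0390) or array weights (0.0430), without earlier array 3 (0.0367) and without the 4 arrays numbered 3 (0.00013), and its close paralog RpS5a may share the probes.

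The translation gene that fell was eIF3d1, an initiation factor subunit. It averaged 1105 ± 249 in later embryos and 1866 ± 387 in earlier embryos (log2 difference −0.75, adjusted p = 0.0197). Its call was lost with no trend in the fit (adjusted p = 0.0558), without later array 3 (0.0860) and without earlier arrays 1 or 2 (0.0711 and 0.0852). The mitochondrial ribosomal protein mRpS16, the elongation factor eEF1beta and the translation inhibitor Thor did not pass, with log2 differences of 0.38, −0.29 and 0.37. Of these, eEF1beta passed with quantile normalization (0.0422), and mRpS16 and eEF1beta passed without the 4 arrays numbered 3 (0.0457 and 0.0444).

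Signalling genes went both ways, with 1 rise and 3 falls among 9 tested (44.4% passed). PKD, protein kinase D, rose: it read 80.1, 74.1 and 89.2 in later embryos, against 36.6, 25.3 and 24.4 in earlier embryos, a log2 difference of 1.18 ± 0.27 (adjusted p = 0.00427). The cytokine receptor dome, which feeds the JAK/STAT pathway, read 219, 258 and 295 in later embryos, against 417, 540 and 545 in earlier embryos. It fell by 0.93 ± 0.19 on the log2 scale (adjusted p = 0.00183). The adaptor dos, which acts downstream of receptor tyrosine kinases, read 13.3, 54.7 and 56.5 in later embryos, against 93.7, 116 and 109 in earlier embryos (log2 difference −1.25, adjusted p = 0.0174). Gprk2, a kinase of G protein-coupled receptors, read 12.6, 66.5 and 71.9 in later embryos, against 82.7, 112 and 129 in earlier embryos (log2 difference −1.09, adjusted p = 0.0487). In dos and Gprk2 the lowest value by far was that of later array 1.

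The call for Gprk2 was also lost with no array left out, under 0.25 times the pseudocount (adjusted p = 0.0559), no filter (0.0702), no trend (0.0690) and array weights (0.0508), and in the fit of the 6 untreated arrays alone (0.0952). Without later array 1 the log2 difference of dos was −0.79 (adjusted p = 0.0747) and that of Gprk2 was −0.54 (adjusted p = 0.218). The call for dos was also lost without earlier arrays 2 or 3 (0.0602 and 0.0515), and that for Gprk2 without any one of the 3 earlier arrays (0.0540, 0.117 and 0.146) or the 4 arrays numbered 3 (0.085). PKD lost its call without the 4 arrays numbered 3 (0.0713). The genes Mkk4, Snrk, for, Fur2 and POSH, among them 3 kinases, did not pass, with log2 differences between −0.64 for Fur2 and 0.27 for POSH, while the kinase gene for passed without the 4 arrays numbered 3 (0.0417).

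Among genes of membrane traffic and transport, 1 of 5 rose and 2 fell. Nmt, the transferase that attaches myristate to proteins, read 283, 234 and 224 in later embryos, against 716, 643 and 575 in earlier embryos, a log2 difference of −1.34 ± 0.18 (adjusted p = 5.58e-05). The cargo receptor bai of the early secretory pathway read 1045, 991 and 790 in later embryos, against 574, 671 and 510 in earlier embryos (log2 difference 0.67, adjusted p = 0.00796). The reticulon Rtnl1, which shapes the endoplasmic reticulum, read 9.7, 17.4 and 73.0 in later embryos, against 75.7, 98.9 and 113 in earlier embryos (log2 difference −1.46, adjusted p = 0.0279). Later array 3 lay close to earlier array 1, and the call for Rtnl1 was lost without later arrays 1 or 2 (0.125 and 0.0963) or earlier arrays 2 or 3 (0.0752 and 0.0874). VhaSFD, a proton pump subunit, had an interval of −0.63 to 0.35, and the ion transporter Ndae1 one of −0.92 to 0.46.

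Of 4 tested genes of chaperones and stress, 1 rose and 2 fell (75.0% passed). Hsp83, the fly Hsp90, read 1341, 1503 and 2001 in later embryos, against 708, 790 and 1194 in earlier embryos (log2 difference 0.86 ± 0.21, adjusted p = 0.00604). Fkbp12, a peptidyl-prolyl isomerase, read 1948, 1947 and 2117 in later embryos, against 3198, 3897 and 3318 in earlier embryos (log2 difference −0.78 ± 0.16, adjusted p = 0.00202). The groups did not overlap for either gene. Prx6a, a peroxiredoxin that removes peroxides, averaged 79.8 ± 12.7 in later embryos and 133 ± 12.2 in earlier embryos (log2 difference −0.65, adjusted p = 0.0402). Its call was lost with no filter (adjusted p = 0.0502), in the fit of the 6 untreated arrays alone (0.0703), without later arrays 2 or 3 (0.0719 and 0.121) and without earlier arrays 1, 2 or 3 (0.128, 0.0853 and 0.0727), as it was without the 4 arrays numbered 3 (0.155). The small heat shock protein CG4461 averaged 99.8 ± 23.8 in later embryos and 99.6 ± 29.2 in earlier embryos, with an interval of −0.65 to 0.68.

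In the immune group 1 of 5 tested probe sets rose (20.0%). It was 145970_AT of Tep2, a thioester protein of the blood, which read 194, 197 and 168 in later embryos, against 119, 85.3 and 95.5 in earlier embryos (log2 difference 0.82, adjusted p = 0.0111). The other probe set of Tep2, 145971_at, was dim in both windows, at a log2 difference of 0.31 (adjusted p = 0.751). The call for 145970_AT was lost without earlier array 2 (adjusted p = 0.0502). The antimicrobial peptide gene DptB averaged 90.1 ± 40.1 in later embryos and 83.5 ± 3.90 in earlier embryos, with a log2 difference of 0.03 and an interval of −0.61 to 0.67. Of 10 probe sets of genes of the germ line, the sense organs or digestion, 3 were tested, and none of these passed.

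Sps1, a selenophosphate synthetase, was the 1 of 4 genes of nucleotide and cofactor synthesis that passed. It read 666, 611 and 553 in later embryos, against 1398, 1701 and 1614 in earlier embryos, a fall of 1.34 ± 0.16 on the log2 scale (adjusted p = 1.65e-05). The purine synthesis genes Pfas and Gart had log2 differences of 0.64 and 0.36 (adjusted p = 0.0992 and 0.493), and Nadsyn, which completes NAD, one of −0.37 (adjusted p = 0.146).

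Several genes known by a CG number were among the larger changes. CG17896, methylmalonate-semialdehyde dehydrogenase of valine breakdown, read 263, 309 and 273 in later embryos, against 63.4, 119 and 103 in earlier embryos (log2 difference 1.48 ± 0.31, adjusted p = 0.00213). CG31743 averaged 135 ± 14.4 in later embryos and 29.5 ± 7.64 in earlier embryos (log2 difference 1.81, adjusted p = 0.00296). On the other side, CG3036 read 99.1, 88.6 and 117 in later embryos, against 437, 480 and 312 in earlier embryos (log2 difference −1.87 ± 0.21, adjusted p = 1.03e-05). CG18853 averaged 38.7 ± 12.2 in later embryos and 151 ± 20.7 in earlier embryos (log2 difference −1.67, adjusted p = 0.000147). CG1620 averaged 22.2 ± 17.0 in later embryos and 92.6 ± 10.3 in earlier embryos (log2 difference −1.67, adjusted p = 0.00733). For these genes no later array crossed into the range of the earlier arrays.

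CG9391 and CG15203 also rose, and several settings ended their calls. CG9391 averaged 129 ± 11.9 in later embryos and 54.6 ± 35.0 in earlier embryos (log2 difference 1.24, adjusted p = 0.0322), with earlier array 3 at 15.2 against 82.3 and 66.3 on earlier arrays 1 and 2. Without earlier array 3 its log2 difference was 0.70 (adjusted p = 0.161), and the call was also lost without any one of the later arrays (0.0815, 0.0838 and 0.0526) or the 4 arrays numbered 3 (0.176), with no trend (0.0509) and with array weights (0.0599). CG15203 averaged 44.1 ± 15.3 in later embryos and 11.5 ± 6.63 in earlier embryos (log2 difference 1.21, adjusted p = 0.0205), and lost its call without later array 2 (0.0858), earlier array 1 (0.0891) or the 4 arrays numbered 3 (0.0756), and in the fit of the 6 untreated arrays alone (0.0508). Every earlier value of CG15203 lay below the filter value.

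Of 21 lists of genes by function, 15 had a tested member. Among amino acid and one-carbon enzymes 5 of 6 tested members were higher and 1, Sps1, was lower, with a median log2 difference of 1.95. Both tested members of the DNA replication and cell cycle list, RPA2 and Rca1, were lower. Of 3 tested members of the RNA polymerase and Mediator list 2 were lower, MED22 and Polr2C, and of 3 cytosolic ribosomal proteins none passed. The 6 lists of neural, epidermal, haemocyte and fat body, germ cell and maternal, midgut and yolk, and cell death genes had no named probe set. The markers of these cell types, and the muscle markers Mhc, Mef2, Act57B and Mlc2, were therefore not analysed by name here, and the labelled stages were not checked against defining markers of tissues. These small lists are read only by their counts beside the 26.8% of all tested probe sets.

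All but 109 of the 10139 tested probe sets had no name here. The largest changes were among those without a name, at log2 differences of −7.44 and 4.97. The ones given below were taken by smallest p, up to 2 in each direction, and not by size. Of all tested probe sets 149763_AT had the smallest p. It read 60.1, 67.4 and 29.4 in later embryos, against 6455, 6358 and 4052 in earlier embryos, a log2 difference of −6.45 ± 0.26 (adjusted p = 1.28e-09). The signal was thus among the brightest on the array at stages 9 to 11 and close to the filter value at stages 13 to 15. 151283_S_AT averaged 44.8 ± 22.9 in later embryos and 1634 ± 112 in earlier embryos (log2 difference −4.91, adjusted p = 1.51e-08). Of the rises, 152879_AT read 750, 936 and 886 in later embryos, against 72.7, 74.2 and 98.7 in earlier embryos (log2 difference 3.20 ± 0.17, adjusted p = 1.65e-08). 142736_s_at averaged 1487 ± 92.7 in later embryos and 218 ± 27.95 in earlier embryos (log2 difference 2.70, adjusted p = 2.55e-08). The genes behind these probe sets are not named here.

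The same comparison of windows can be read in the 6 irradiated arrays, which share no array with the untreated ones. There 23.6% of the tested probe sets (2390) passed. Of the 2719 calls in untreated embryos, 2673 (98.3%) had the same direction in irradiated embryos and 1834 also passed there, which is 67.5% of the untreated calls and 76.7% of the irradiated ones. With each set of 6 arrays fitted alone, 1696 were shared, 67.9% of the untreated calls and 75.8% of the irradiated ones. The irradiated embryos had also been exposed to X-rays, so the 2 sets differ by more than the arrays used.

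Larger changes were found again more often. Among changes under 2-fold, 52.0% of the rises and 47.6% of the falls also passed in irradiated embryos. Between 2-fold and 4-fold it was 70.4% of the rises and 68.4% of the falls, and between 4-fold and 8-fold 96.8% of the rises and 91.4% of the falls. All 50 rises and all 22 falls of at least 8-fold passed in both sets. A test of the difference between the untreated and the irradiated stage difference was passed by 2 probe sets, with 460 at an unadjusted p under 0.05, and by no named gene.

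**Figure D4:**
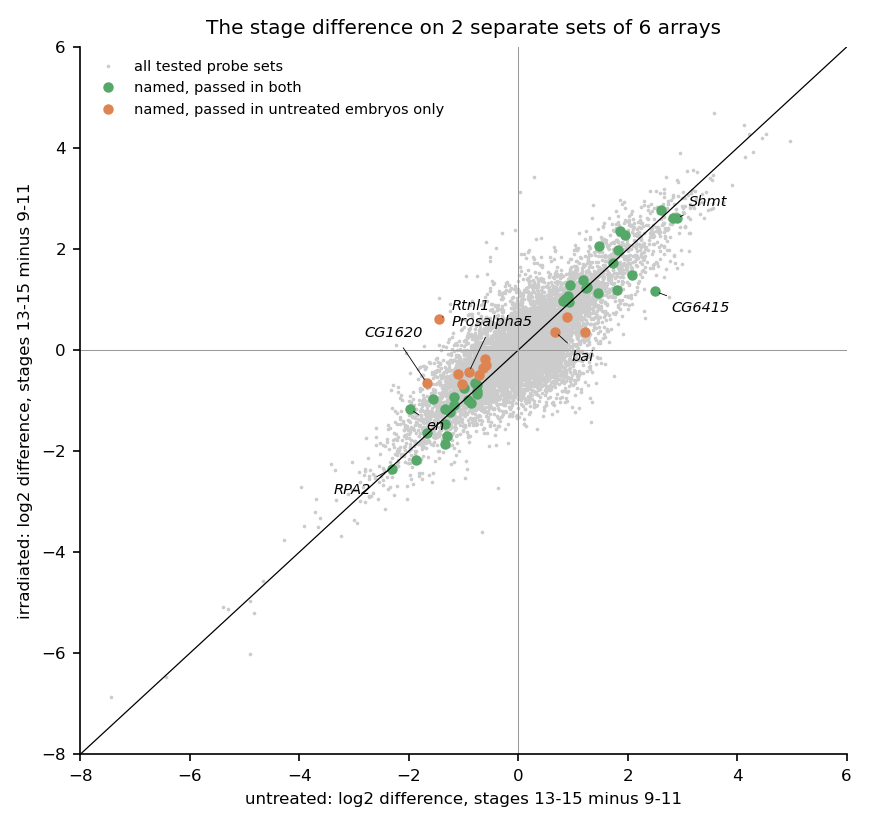
Log2 difference between stages 13 to 15 and stages 9 to 11 in irradiated embryos (vertical axis) against the same difference in untreated embryos (horizontal axis), 1 point for each tested probe set, with the line of equal change. Named genes that passed in both sets (39) are green and those that passed in untreated embryos alone (12) are orange; Shmt, Oat and betaTub60D lie at the upper right and RPA2 at the lower left.

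Of the 51 named genes that passed in untreated embryos, 39 also passed in irradiated embryos in the same direction. Some differences were of similar size there: betaTub60D differed by 2.77 in irradiated embryos, Shmt by 2.60, Oat by 2.61 and RPA2 by −2.35 on the log2 scale. CG6415 and en had smaller differences there, 1.16 and −1.17, than the 2.50 and −1.98 of untreated embryos. In limma's test of the difference their unadjusted p was 0.00601 and 0.0364, and neither passed after adjustment (adjusted p = 0.995 for both). The 12 that passed in untreated embryos alone included the 3 proteasome subunits, with irradiated log2 differences of −0.44 for Prosalpha5 (adjusted p = 0.122), −0.18 for Prosalpha6 (0.434) and −0.30 for Prosbeta7 (0.151). TfIIFalpha differed by −0.67 (adjusted p = 0.0613) and CG1620 by −0.65 (0.304) in irradiated embryos. Rtnl1 was the only one of the 12 with the opposite sign there, at 0.62 (adjusted p = 0.377). After adjustment over all tested probe sets, none of the 12 passed the test of the difference itself. In that test Rtnl1 was at −2.08 ± 0.65 (SE) with an unadjusted p of 0.00592. With 3 arrays per group, not passing does not show that the untreated and irradiated differences are equal. A further 6 named genes passed in irradiated embryos alone, among them Lsd-2, at 1.06 (adjusted p = 0.00704), against 0.32 in untreated embryos.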

How the data were processed

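Total RNA was measured on 12 arrays of 1 colour, and the 6 untreated ones carry this comparison. The authors deposited intensities on a linear scale, with scanner software, background correction and normalization not given in the sources used. In these deposited intensities the arrays' trimmed means (2% cut at each end) were the same to within 0.00230%, so no further normalization was applied, and a change of total signal cannot be seen. Values were taken as log2(intensity + 13.3), the 25th percentile of the deposited table; probe sets above 29.9 (the 40th percentile) on at least 3 of 12 arrays, whatever their group, were kept (10139). limma 3.58.1 in R 4.3.3 (lmFit, eBayes with trend) fitted 4 group means over 12 arrays, with 8 residual degrees of freedom and 7.26 more from the prior; tests were 2-sided, with Benjamini-Hochberg adjustment at 0.05. Folds and differences are stages 13 to 15 over or minus stages 9 to 11. Precision is limited by the number of arrays: 95% intervals had a median half-width of 0.725. The smallest p of an exact permutation test of 3 arrays against 3 is 0.1, so single genes were tested only in the model.

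Probe-set identifiers were matched to synonyms in RefSeq's gene table, whose assembly is Release 6 plus ISO1 MT; 133 matched 1 gene each and 13833 gene probe sets were left unnamed. Promoters and other sequences were not analysed here. The comparison, the members and the gene lists were chosen with earlier results of these data known. The genes named are every tested list member by count, up to 15 rises and 15 falls by size that passed the test without overlap of the groups, up to 2 unnamed probe sets in each direction by p, up to 8 genes whose 95% interval lay within 0.75 of 0, and up to 5 whose call differed in irradiated embryos; other genes were named by role after their values were seen, and some named genes are counted but not reported here by name. Alternatives changed the normalization, the pseudocount, the filter and the trend, or used array weights, separate fits, the replicate number as a block, and leaving out arrays. The code was tested on simulated data.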

Additional observations from a re-analysis of the deposited data

Results flagged for a closer look

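In 2 probe sets the stage difference itself differed between untreated and irradiated embryos in limma's interaction test, given as the untreated minus the irradiated stage difference on the log2 scale. Neither has a gene name here, and neither passed in untreated embryos. 143796_AT averaged 175 ± 48.5 at stages 13 to 15 and 183 ± 86.1 at stages 9 to 11 in untreated embryos (SD, n = 3 each), a log2 difference of 0.02, against a log2 stage difference of 3.13 in irradiated embryos. The interaction was −3.11 ± 0.47 (SE; adjusted p = 0.0380). In irradiated embryos it read 304, 312 and 221 at stages 13 to 15 and 24.0, 22.5 and 13.5 at stages 9 to 11.

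153035_AT averaged 94.1 ± 24.6 at stages 13 to 15 and 155 ± 17.8 at stages 9 to 11 in untreated embryos, a log2 difference of −0.67 (adjusted p = 0.0787), against −3.60 in irradiated embryos. The interaction was 2.93 ± 0.38 (adjusted p = 0.0123). In irradiated embryos it read 30.2, 30.0 and 72.7 at stages 13 to 15 and 615, 608 and 730 at stages 9 to 11. Both rest on few arrays: without untreated array 1 or 2 of stages 13 to 15, or untreated array 1 or 2 of stages 9 to 11, no probe set passed this test.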

How the results depend on the processing

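The count of called probe sets stayed within 1.5 times the 2719 under every alternative run, at 2256 without the 4 arrays numbered 3 to 3180 with the replicate number as a block, and at 2138 to 2519 when each of the 6 untreated arrays was left out in turn. Median scaling gave 1137 higher and 1610 lower, so 41.4% of the calls were higher, against 46.0% with the values as deposited. With 4 times the pseudocount 1141 probe sets were called and at least 2-fold apart, against 1883. Of 52 called probe sets that the text or a list names, 35 passed in all 18 settings, 17 lost their call in at least 1 and none changed sign. Same-numbered arrays of the 2 windows had correlations of their deviations of 0.106, 0.0642 and 0.152. These are weak, but each array correlated best with its own number. The main fit did not take the numbers as pairs, and some genes that did not pass there passed with the number as a block. The replicate block gave 3180 calls over 12 arrays and 2854 in the 6 untreated arrays, 58 and 54 of them named, and 2881 calls in irradiated embryos. The block over 12 arrays called Skp2 (adjusted p = 0.000880), pic (0.00402), Pfas (0.0485), RpS5b (1.4e-05), eEF1beta (0.0175), mRpS16 (0.0312), for (0.0312) and Pepck1 (0.00850). The block in the 6 untreated arrays called Skp2, pic, RpS5b, eEF1beta, Pepck1 and 150269_at of bon (0.0424), and ended the calls of mrn (0.0753) and Prx6a (0.0712).

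The test of untreated against irradiated stage differences passed 1 probe set with quantile normalization, with 4 times the pseudocount, with no filter and with the stricter filter, 0 with no trend, 12 without the 4 arrays numbered 3, and 0 to 3 when an untreated array was left out. The cause was not tested.

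Log2 differences near 0 changed sign in genes that did not pass. With quantile normalization CG4461 was at −0.0083, DptB at −0.0094, RpL23A at −0.10 and RpL32 at −0.035. With median scaling Gabat and RpL23A were at −0.055, CG4461 at −0.050 and DptB at −0.035. With array weights CG4461 was at −0.025. Leaving out 1 untreated array in turn gave −0.033 to 0.062 for Gabat, −0.19 to 0.20 for CG4461, −0.70 to 0.21 for 150268_at of bon, −0.27 to 0.19 for DptB, −0.090 to 0.82 for 145971_at of Tep2, −0.40 to 0.089 for VhaSFD, −0.070 to 0.11 for RpL23A, −0.16 to 0.37 for RpL32 and −0.35 to 0.057 for Mondo. The fold of dim genes also depends on the pseudocount: at 4 times its size the log2 difference of Shmt was 1.81, of CG9547 1.18, of CG31743 1.19, of Irp-1B 1.19, of CG1620 −0.97 and of Rtnl1 −0.85.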
